A study of Homo sapiens with 6 samples.

Results

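The Notch receptors NOTCH1 to NOTCH4 and their ligands DLL1, DLL3, DLL4, JAG1 and JAG2 were followed in HCT-15 cells, a human line established from a colon cancer, treated with 5-aza-2'-deoxycytidine or left untreated. This drug is a cytosine analogue that traps DNA methyltransferases once it has been incorporated into DNA, so that methylation is lost as cells divide. There were 3 treated and 3 untreated arrays of total RNA, and each gave 1 value on the log2 scale for each of 1259 probe sets. Members were chosen by name, as every probe set whose RefSeq transcript belongs to 1 of these genes. All 9 genes were on the array, out of 927 genes in all, and they were covered by 11 probe sets, 4 for receptors and 7 for ligands. DLL3 had 3 probe sets and each of the other 8 members had 1. Dose, duration and vehicle of the treatment are not given in these labels. The study asked how genes of glycan synthesis and recognition change when the drug raises the display of sialyl Lewis x on these cells.

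Notch receptors are single-pass membrane proteins whose large extracellular part is a string of EGF-like repeats. Binding of a Delta-like or Jagged ligand on a neighbouring cell allows the receptor to be cut by an ADAM protease and then by γ-secretase, and the freed intracellular part enters the nucleus, joins the DNA-binding protein RBPJ and turns on genes of the HES and HEY families. Sugars on the EGF-like repeats, above all O-linked fucose extended by Fringe enzymes, tune which ligand a receptor answers to. In the intestine the pathway keeps crypt progenitors dividing and directs cells away from the secretory lineages.

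Pairs of treated arrays correlated at 0.9974 to 0.9987 and pairs of untreated arrays at 0.9978 to 0.9982, against 0.9817 to 0.9844 across the groups. The source name and treatment entry of untreated replicate 3 mark it as untreated while its title calls it treated, and it was kept as untreated. The titles of all arrays carry the word control, those of the treated arrays included. Since no label states whether the replicates were grown as separate cultures, the p-values reflect only how far these arrays differ, which may be technical, and precision is limited by the small number of arrays. Of 10 markers listed for colon epithelium 4 were measured, and their mean level was 7.97 to 8.12 on treated arrays and 7.56 to 7.59 on untreated arrays. MUC13 (0.96 log2 change, adjusted p = 6.15e-06) and MUC1 (1.30, adjusted p = 3.3e-05), both membrane mucins, rose, whereas the intestinal galectin LGALS4 fell by 0.51 (adjusted p = 0.000291). Mean levels were 4.41 to 4.54 on treated and 4.24 to 4.39 on untreated arrays for 4 leukocyte markers, 4.55 to 4.61 and 4.38 to 4.71 for 3 endothelial markers, and 3.39 to 3.55 and 3.40 to 3.57 for 4 stromal markers. Among these, the leukocyte marker CD33 rose by 0.57 (adjusted p = 0.000168) and the endothelial marker PECAM1 by 0.30 (adjusted p = 0.0403), while the leukocyte marker CD22 fell by 0.25 (adjusted p = 0.013) and the stromal marker PDGFRB fell by 0.48 (adjusted p = 0.00186). Single values ran from 2.91 to 6.27 for the leukocyte markers, 2.83 to 5.84 for the endothelial and 2.37 to 5.42 for the stromal markers. Without detection calls these values cannot be set against background, and their part in the results was not tested.

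Because the drug acts on methylation at CG dinucleotides, the promoters of 3 members that behaved differently are shown: NOTCH1, which rose, NOTCH4, which was not called, and JAG2, which fell. Each is the RefSeq promoter window from 250 bases before to 50 bases after the annotated gene start in build GRCh38.p14, written 5′ to 3′ along the gene's strand, with every CG in capitals.
NOTCH1 (chr9:136545999-136546298, minus strand): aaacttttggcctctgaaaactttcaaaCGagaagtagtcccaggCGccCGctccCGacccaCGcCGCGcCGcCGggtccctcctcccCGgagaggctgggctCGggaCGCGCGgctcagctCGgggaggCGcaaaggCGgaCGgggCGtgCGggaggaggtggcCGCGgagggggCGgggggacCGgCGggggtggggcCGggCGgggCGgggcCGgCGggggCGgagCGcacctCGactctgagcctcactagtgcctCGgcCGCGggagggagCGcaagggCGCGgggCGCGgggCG
NOTCH4 (chr6:32224018-32224317, minus strand): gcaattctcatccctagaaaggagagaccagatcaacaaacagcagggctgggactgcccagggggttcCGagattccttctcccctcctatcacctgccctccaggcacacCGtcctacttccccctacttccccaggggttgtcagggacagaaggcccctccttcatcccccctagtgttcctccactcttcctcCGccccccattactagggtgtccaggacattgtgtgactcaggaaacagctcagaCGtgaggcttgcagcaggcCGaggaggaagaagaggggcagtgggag
JAG2 (chr14:105168727-105169026, minus strand): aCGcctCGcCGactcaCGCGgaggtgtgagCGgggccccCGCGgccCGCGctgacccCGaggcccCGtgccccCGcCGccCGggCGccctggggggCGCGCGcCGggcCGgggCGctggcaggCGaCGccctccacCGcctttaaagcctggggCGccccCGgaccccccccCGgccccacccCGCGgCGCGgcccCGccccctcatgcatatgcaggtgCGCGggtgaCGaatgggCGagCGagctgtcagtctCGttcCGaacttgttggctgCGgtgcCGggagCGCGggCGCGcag

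The motif searched was CG, which reads the same on both strands, and 96.0% of the 35116 promoter windows hold at least 1. A window held 14 at the median, with quartiles of 4 and 28. The JAG2 window held 46 and the NOTCH1 window 42, counts that 2.89% and 5.85% of all windows reach or exceed. NOTCH3 had 37, NOTCH2 33, DLL4 27 and JAG1 24, all above the median of all windows. NOTCH4 stood apart from these with 5, a count that 70.4% of windows reach. Observed over expected CG was 0.969 for JAG2, 0.982 for NOTCH1 and 0.195 for NOTCH4. Counts above the median belong to members that rose (NOTCH1, NOTCH3, DLL4, JAG1), a member that was not called (NOTCH2) and the member that fell (JAG2). The calls of DLL4 and JAG1 varied with the settings, as given below. The match covered 7 of the 9 members (not DLL1 and DLL3). No methylation was measured here, so these counts describe sequence only.

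**Figure D1:**
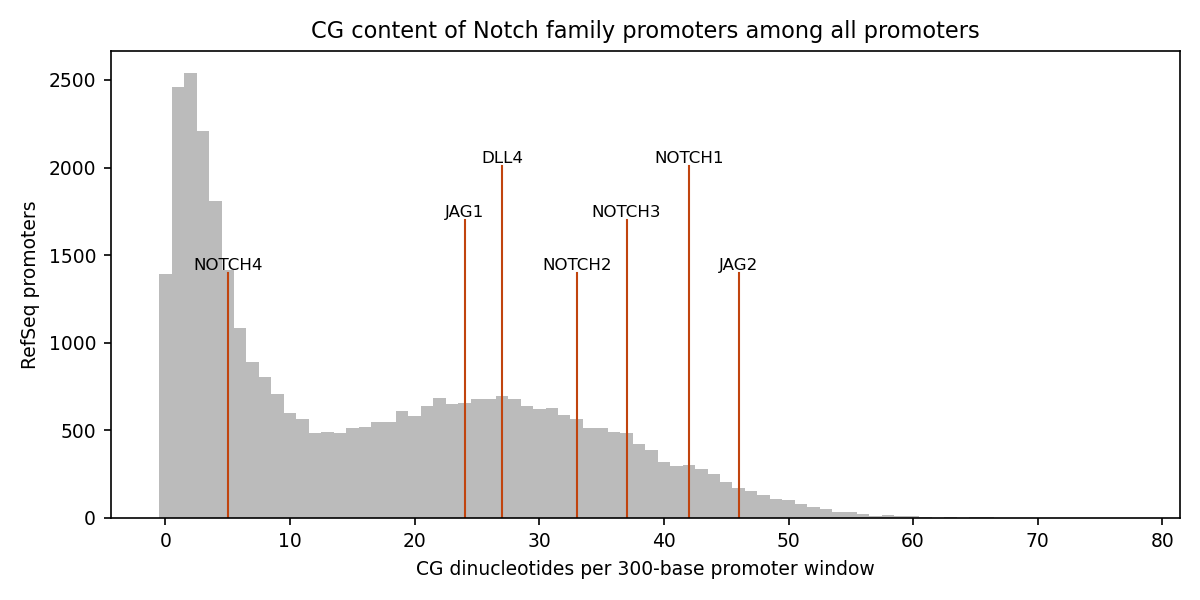
Number of RefSeq promoters (grey bars, y axis) by the number of CG dinucleotides in the 300-base window (x axis), with a vertical line for each of the 7 matched members; the heights of these lines carry no value. NOTCH4 lies at 5, and the other members lie between 24 and 46, above the median of 14.

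After treatment DLL3, NOTCH1 and NOTCH3 were higher, JAG2 was lower, and DLL1, DLL4 and JAG1 were higher by amounts whose calls varied with the settings. With limma, and Benjamini-Hochberg adjustment over all 1259 probe sets, 9 of the 11 member probe sets passed an adjusted p under 0.05, against 34.8% of all probe sets. Of these, 8 rose (18.0% of all probe sets did) and 1 fell (16.8% of all did). In the same 9 the treated and untreated values did not overlap, against 46.1% of all probe sets, with 8 wholly higher (22.7% of all) and 1 wholly lower (23.4% of all). Taken by gene, with the brightest probe set standing for each, 6 of 9 rose, 1 fell and 2 were not called, beside 37.3% of the 927 genes called in either direction, 19.7% higher and 17.6% lower. The median log2 change was 0.26 over the member probe sets and -0.01 over all probe sets. The changes were modest in size: the largest was 1.89-fold, for DLL3. With medians of the arrays set equal, the calls over the whole table were 197 rises and 311 falls in place of 227 and 211, and those of the members were 5 rises and 1 fall. The members' rises also numbered 5 without treated replicate 1 and without untreated replicate 1. In these 3 fits the rises by gene were 3 of 9 (NOTCH1, NOTCH3 and DLL3), since DLL3 supplied 3 of the 5 probe sets.

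**Figure D2:**
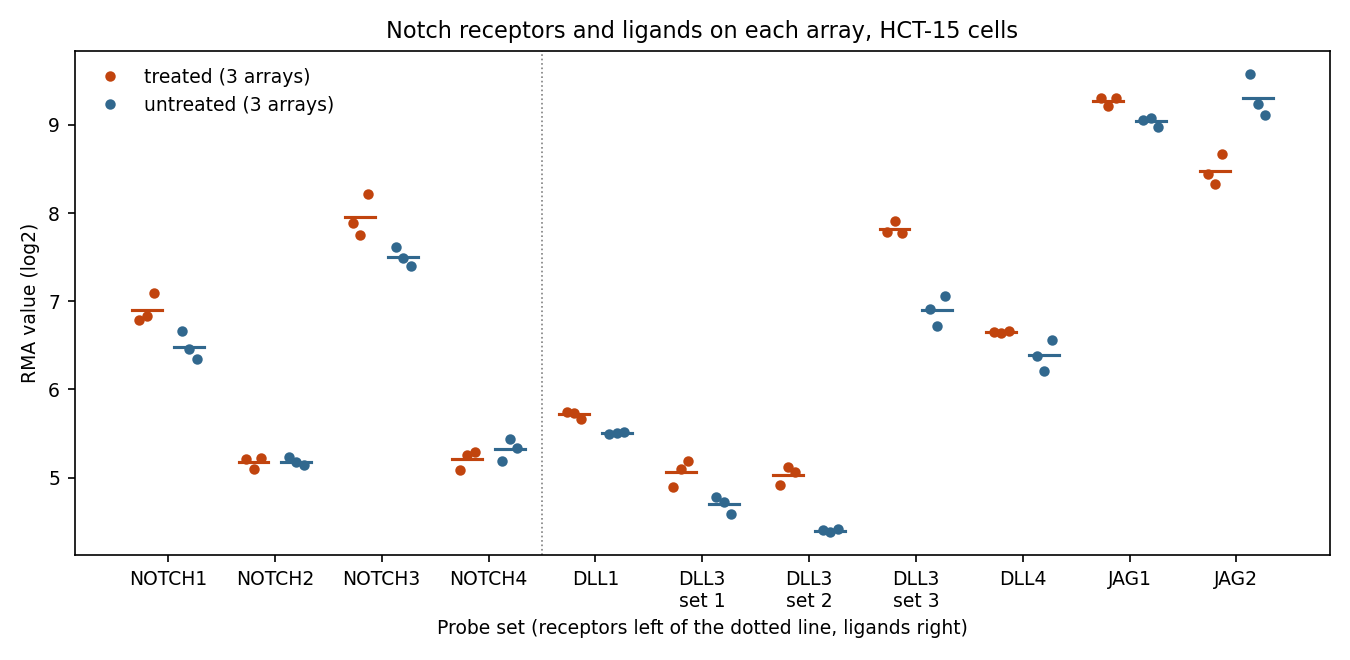
RMA value (log2, y axis) of each member probe set on each array, with treated arrays left of untreated arrays; points are arrays and short lines are means of 3. Treated points lie above all untreated points for 8 probe sets and below them for JAG2, while the groups overlap for NOTCH2 and NOTCH4.

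Among the receptors, NOTCH1 and NOTCH3 rose and NOTCH2 and NOTCH4 were not called. NOTCH1, which together with NOTCH2 serves intestinal progenitors in the mouse, had log2 values of 6.79, 6.83 and 7.09 on the treated arrays, against 6.66, 6.46 and 6.34 on the untreated arrays. The groups did not overlap, and the lowest treated array lay just above the highest untreated one. The log2 change was 0.42 ± 0.11 (SE, n = 3 each), or 1.34-fold, with an adjusted p = 0.00928 in limma's test.

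NOTCH3, a receptor best known from vascular smooth muscle, had 7.89, 7.75 and 8.22 on the treated arrays, against 7.62, 7.49 and 7.40 on the untreated arrays. Treated replicate 3 was the highest and every treated array was above every untreated one. The log2 change was 0.45 ± 0.12 (SE, n = 3 each), or 1.36-fold, with an adjusted p = 0.0108 in limma's test. For both NOTCH1 and NOTCH3 an ordinary equal-variance test, which does not borrow the variance of other probe sets, gave the same direction but no call (adjusted p = 0.0992 for NOTCH1 and 0.118 for NOTCH3).

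NOTCH2 had 5.21, 5.10 and 5.22 on the treated arrays, against 5.23, 5.18 and 5.14 on the untreated arrays, values that interleave. Its log2 change was -0.01 with a 95% interval of -0.16 to 0.15 (adjusted p = 0.95). Whether partial copies of NOTCH2 in the human genome, the NOTCH2NL genes, share signal with this probe set was not tested. NOTCH4, a receptor known mainly from endothelium, had 5.09, 5.26 and 5.29 on the treated arrays, against 5.19, 5.44 and 5.34 on the untreated arrays. These groups overlapped too, and the log2 change was -0.11 with a 95% interval of -0.31 to 0.08 (adjusted p = 0.386). The upper bounds of both intervals are lower than the estimates for NOTCH1 and NOTCH3. The NOTCH2 and NOTCH4 probe sets are dimmer, however, with values below the array medians of 5.81 to 5.92. RMA compresses differences between dim probe sets, so these intervals may understate a change.

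Among the Delta-like ligands all 3 genes were called higher, beside 19.7% of all genes, and DLL3 rose the most. The calls of DLL1 and DLL4 varied with the settings. DLL3 is the divergent member of the group: it does not activate Notch on a neighbouring cell and is known to hold Notch back within its own cell. Its brightest probe set, set 3 (NM_203486.1_psr1_s_at) had 7.78, 7.91 and 7.77 on the treated arrays, against 6.91, 6.72 and 7.06 on the untreated arrays. The groups were far apart for their spread, and the log2 change was 0.92 ± 0.09 (SE, n = 3 each), or 1.89-fold (adjusted p = 2.16e-05).

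The other DLL3 probe sets are built on another of its transcripts and went the same way by smaller amounts. Set 2 (NM_016941.2_psr1_x_at) had 4.92, 5.12 and 5.06 on the treated arrays, against 4.41, 4.38 and 4.42 on the untreated arrays, a log2 change of 0.63 ± 0.07 (SE, adjusted p = 6.49e-05). Set 1 (NM_016941.2_psr1_at) had 4.89, 5.10 and 5.19 on the treated arrays, against 4.78, 4.73 and 4.59 on the untreated arrays, a log2 change of 0.36 ± 0.09 (SE, adjusted p = 0.0111). All 3 probe sets were called higher, as were 18.0% of all probe sets. None overlapped between groups, as was true of 46.1% of all, while their log2 changes spanned 0.36 to 0.92. These 3 values share a gene and the same arrays, so they are not separate evidence. Sets 1 and 2 lie among the 420 dimmest probe sets of the table, where RMA compresses differences, and the name endings of sets 2 and 3 mark those that can bind more than 1 transcript. The ordinary test did not call set 1 (adjusted p = 0.0887).

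DLL1, the ligand that acts with DLL4 on intestinal progenitors in the mouse, had 5.75, 5.73 and 5.67 on the treated arrays, against 5.49, 5.51 and 5.52 on the untreated arrays. The groups were tight and did not overlap, and the log2 change was 0.21 ± 0.07 (SE, n = 3 each), or 1.16-fold (adjusted p = 0.0317). DLL4, also a ligand of sprouting vessels, had 6.65, 6.64 and 6.66 on the treated arrays, against 6.38, 6.21 and 6.56 on the untreated arrays. Its treated values were nearly equal and its untreated values were spread, and the log2 change was 0.26 ± 0.09 (SE, n = 3 each), or 1.20-fold (adjusted p = 0.0438).

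Both calls depended on single arrays and on scaling. For DLL1 the adjusted p was 0.117 without treated replicate 1, 0.086 without treated replicate 2, 0.1 without untreated replicate 1, 0.0753 without untreated replicate 2, 0.0506 without untreated replicate 3, 0.12 after median centring, and 0.122 after quantile normalization. For DLL4 it was 0.104, 0.095 and 0.0918 without treated replicates 1, 2 and 3, 0.0832 and 0.162 without untreated replicates 1 and 2, 0.0887 after median centring and 0.175 after quantile normalization. The DLL4 call was also lost with an intensity trend (0.0503) and in the ordinary test (0.15). With the replicate number as a block the adjusted p was 0.0683 for DLL1 and 0.0636 for DLL4. The log2 change stayed positive in all 14 refits, from 0.13 to 0.23 for DLL1 and from 0.18 to 0.35 for DLL4.

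The Jagged ligands went in opposite directions. JAG2 was the only member that fell. It had 8.44, 8.33 and 8.67 on the treated arrays, against 9.58, 9.24 and 9.11 on the untreated arrays. Every treated array lay below every untreated one, and untreated replicate 1 was the highest. The log2 change was -0.84 ± 0.13 (SE, n = 3 each), or 1.79-fold lower, with an adjusted p = 0.000358 in limma's test. It was called in all 14 refits, with log2 changes from -0.94 to -0.70 and adjusted p from 7.33e-05 to 0.0369.

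JAG1, which is also the ligand altered in Alagille syndrome, had 9.30, 9.21 and 9.31 on the treated arrays, against 9.05, 9.08 and 8.97 on the untreated arrays. The groups did not overlap, and the log2 change was 0.24 ± 0.07 (SE, n = 3 each), or 1.18-fold (adjusted p = 0.0223). The call was lost without treated replicate 1 (adjusted p = 0.0823), treated replicate 3 (0.0542), untreated replicate 1 (0.054) or untreated replicate 3 (0.0682), and after median centring (0.101). The log2 change was positive in all 14 refits, between 0.17 and 0.27. The 95% intervals of JAG1 (0.08 to 0.39) and JAG2 (-1.11 to -0.56) lie on opposite sides of 0. The only probe sets of JAG1 and JAG2 have the same name ending as set 3 of DLL3, which marks sets that can bind several transcripts.

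**Figure D3:**
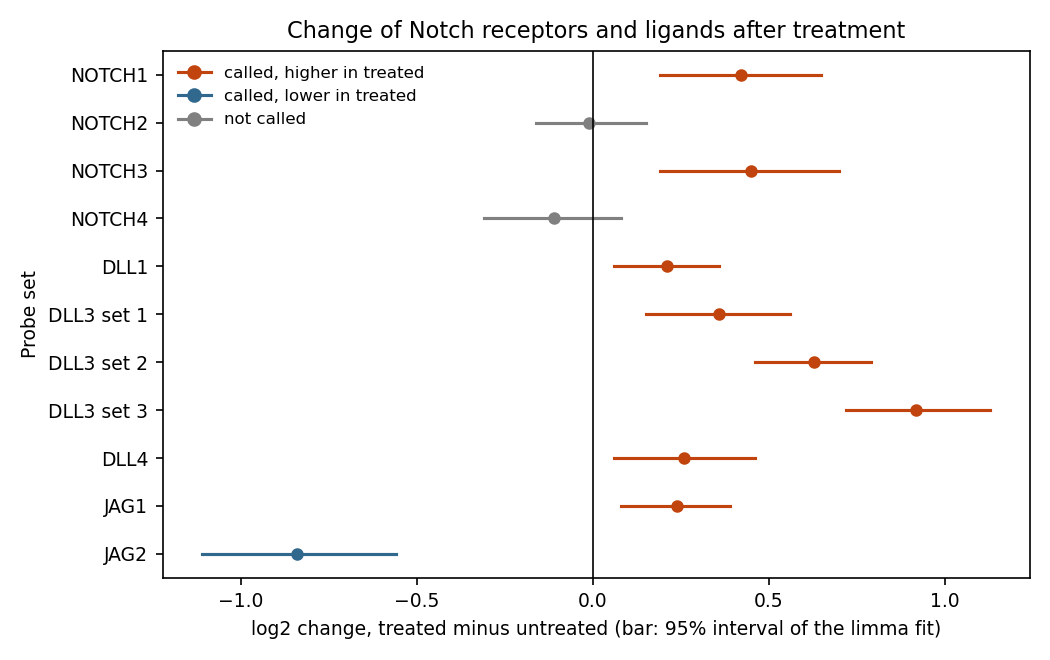
Log2 change, treated minus untreated (x axis), of each member probe set (y axis), with points for limma's estimate and bars for its 95% interval; colour gives the call. DLL3 reaches 0.92 and JAG2 lies at -0.84, while the intervals of NOTCH2 and NOTCH4 span 0.

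The calls separated into those that hold across settings and those near the threshold. Of the 11 member probe sets, 3 were called in every refit that held them (JAG2 and sets 2 and 3 of DLL3), 2 in none (NOTCH2 and NOTCH4) and 6 in some. NOTCH1, NOTCH3 and set 1 of DLL3 were lost in the ordinary test alone. JAG1 was called in 8 of 14 refits, DLL1 in 6 and DLL4 in 4.

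**Figure D4:**
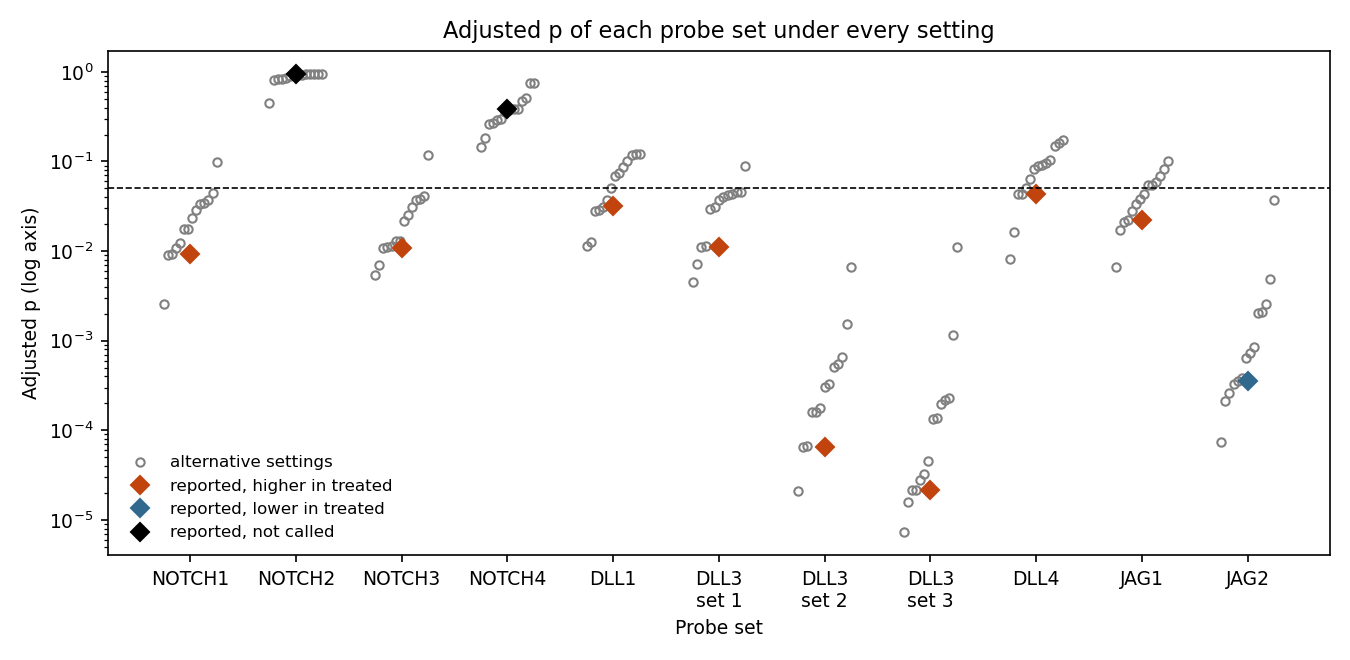
Adjusted p (log axis) of each member probe set in the reported fit (diamonds) and under each alternative setting (open circles, sorted from low to high from left to right); the dashed line is 0.05. The circles of DLL1, DLL4 and JAG1 lie on both sides of the line, and those of JAG2 and DLL3 sets 2 and 3 lie below it.

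Other genes of the pathway were taken from 4 lists with 58 genes, of which 12 were measured. Of these, 5 rose, 2 fell and 5 were not called, beside 37.3% of all genes called, 19.7% higher and 17.6% lower. The lists' median log2 change by gene was 0.19 for glycosylation of Notch, -0.07 for its cleavage and 0.40 for nuclear factors and targets. These medians rest on 4, 5 and 3 measured genes. Over all genes, taken in the same way, the median was -0.0. The 18 atypical ligands and endocytic or ubiquitin regulators listed had no matched probe set.

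Of the enzymes that place sugars on Notch, 4 of 11 were measured, and the 3 Fringe genes did not move together. MFNG, manic fringe, had 7.28, 7.59 and 7.50 on the treated arrays, against 6.41, 6.37 and 6.48 on the untreated arrays. This rise of 1.04 ± 0.09 (SE, 2.06-fold, adjusted p = 6.34e-06) lies above the estimate for DLL3 (0.92), a difference that was not tested. RFNG, radical fringe, was 8.07, 8.14 and 8.25 on the treated arrays, against 7.92, 7.65 and 7.61 on the untreated arrays, a rise of 0.43 ± 0.09 (SE, adjusted p = 0.00455) that the ordinary test did not call (0.0615). LFNG, lunatic fringe, was 6.59, 6.66 and 6.71 on the treated arrays, against 6.90, 7.15 and 7.04 on the untreated arrays, and so fell by 0.38 (SE 0.08, adjusted p = 0.00396). The groups did not overlap for any of these Fringe probe sets, as was true of 46.1% of all probe sets. The name ending of this LFNG set marks it as able to bind several transcripts. A dimmer second LFNG set went the same way without a call (-0.23, adjusted p = 0.101). POFUT1, which adds the O-fucose that Fringe extends, was not called by any of its 3 probe sets, with log2 changes of -0.04, -0.11 and -0.08.

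Of the proteases that cut Notch, values are given for 5 of 8 genes, all of them subunits of γ-secretase, and 1 rose, 1 fell and 3 were not called, a share near the 37.3% called over all genes. The paralogous subunits APH1A and APH1B, which replace each other in the complex, went opposite ways. APH1B had 7.62, 7.70 and 7.57 on the treated arrays, against 6.62, 6.66 and 6.64 on the untreated arrays (log2 change 0.99 ± 0.07 SE, 1.98-fold, adjusted p = 1.52e-06). APH1A had 9.50, 10.0 and 9.64 on the treated arrays, against 10.3, 10.19 and 10.19 on the untreated arrays (-0.51 ± 0.11 SE, 1.43-fold lower, adjusted p = 0.00485). Only the change of APH1B passed in the ordinary test as well, where APH1A had an adjusted p = 0.0856. The catalytic subunit PSEN2 (-0.07), nicastrin, NCSTN (-0.02), and PSENEN (-0.08) were not called. ADAM10 and ADAM17, which make the first cut, had no matched probe set.

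Of the nuclear factors and targets, 3 of 21 genes were measured. HES1, a repressor and the best known Notch target in the intestine, had 8.98, 8.93 and 8.82 on the treated arrays, against 8.50, 8.62 and 8.40 on the untreated arrays. It rose by 0.40 ± 0.08 (SE, 1.32-fold, adjusted p = 0.00258). HES7, a target known from the segmentation clock of the mouse embryo, had 7.33, 7.28 and 7.28 on the treated arrays, against 6.87, 7.04 and 6.79 on the untreated arrays, also a rise of 0.40 ± 0.08 (SE, adjusted p = 0.00243). Neither gene overlapped between groups, as was true of 46.1% of all probe sets, and both were called in all 14 refits. RBPJ, the DNA-binding partner of Notch, was not called (0.03, adjusted p = 0.827), with values from 2.80 to 3.03 on the treated arrays and 2.83 to 2.87 on the untreated arrays, and it lies among the 420 dimmest probe sets.

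**Figure D5:**
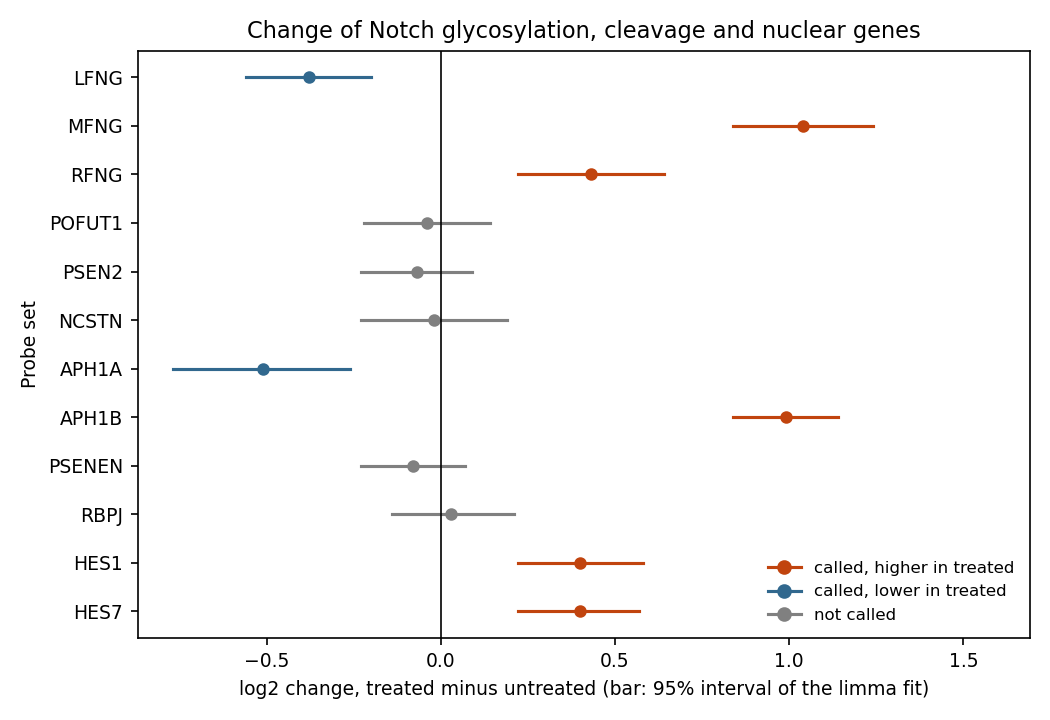
Log2 change, treated minus untreated (x axis), of the 12 measured genes of the pathway lists (y axis, brightest probe set of each gene), with points for limma's estimate and bars for its 95% interval; colour gives the call. MFNG (1.04) and APH1B (0.99) lie farthest to the right and APH1A (-0.51) and LFNG (-0.38) to the left of 0.

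Profiles across the 6 arrays were compared after centring each gene on its own mean, by Euclidean distance over the 926 other genes. Nearest to DLL3 were CHST10, a sulfotransferase of the HNK-1 epitope (distance 0.151, log2 change 0.88), ASGR2, a subunit of the asialoglycoprotein receptor (0.157, log2 change 0.90), and FST, the activin antagonist follistatin (0.224, log2 change 1.00). Nearest to JAG2 were GAA, the lysosomal α-glucosidase (0.219, log2 change -0.76), ARSD, an arylsulfatase (0.258, log2 change -0.94), and CAPNS1, the calpain small subunit (0.285, log2 change -0.68). All 6 share the treatment difference that dominates the distance.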

How the data were processed

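Per the labels' protocols, Trizol-extracted total RNA was biotin-labelled and hybridised to Affymetrix arrays. The authors deposited log2 values, 1 column for each of 6 arrays. Per the submitters' processing notes the values come from RMA, a method of background correction, normalization between arrays and summary over probes. Its version and settings and the array platform are not given in those notes. A log2 scale was inferred from the range, 2.13 to 13.67. Differences between dim probe sets are compressed by RMA, and normalization between arrays reduces a change shared by most genes.

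RefSeq transcripts in probe set names were matched without versions to RefSeq gene symbols (GRCh38.p14), for 1043 probe sets and 927 genes. Another 26 identifiers did not match and 190 probe sets had none. Coordinates are those of the RefSeq promoter windows, not of probes.

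Groups followed the treatment entry. limma 3.58.1 (R 4.3.3) was fitted to all 1259 probe sets with 1 treatment term, eBayes and two-sided tests, adjusted by Benjamini-Hochberg. No filter was applied, and a call is an adjusted p under 0.05. The fit was tested on simulated data. Errors are standard errors of the fit, intervals are its 95% intervals, and folds are 2 to the power of the log2 change.

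Members and lists were chosen with earlier results of these data known. Named were all members, the called genes of each pathway list (up to 6 by p) and the 3 nearest profiles of the largest called rise and fall. For cleavage of Notch, 1 listed gene is not reported here. Uncalled list genes and cell markers were named after their values were seen. Alternatives were quantile normalization, median centring, leaving out the 420 dimmest probe sets (839 stayed), an intensity trend, a robust prior, array weights, a replicate block, leaving out each array, an ordinary equal-variance test, other thresholds and the dimmest probe set of a gene.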

Additional observations from a re-analysis of the deposited data

How the results depend on the processing

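The count of member probe sets called (9, with 8 rises and 1 fall) went to 5, with 4 rises, in the ordinary equal-variance test, and to 4, with 3 rises, at an adjusted p under 0.01. Calls over all 1259 probe sets went from 438 to 344 (180 rises) and to 330 (177 rises) in the same settings. The members' rises numbered 5 after median centring. Leaving out 1 array gave 6 to 7 member calls with 5 to 6 rises, and JAG2 was the 1 fall in each of these fits. Over all probe sets these fits gave 376 to 440 calls. Of the 12 pathway genes, 7 were called, against 5 with 1 fall in the ordinary test, and 1 fall was called with the dimmest probe set of each gene, since the second LFNG set was not called. Leaving out any 1 array gave 7 calls among them. No called value changed its direction in the refits. With the replicate number as a block 6 member probe sets were called, 5 of them rises, and DLL1, DLL4 and JAG1 were lost. That fit called 394 of all probe sets. The deviations of same-numbered arrays from their group means correlated at -0.274, 0.037 and -0.111, and those of differently numbered arrays at -0.328 to 0.422. These few values cannot tell whether arrays were handled in pairs. The cause of these shifts in the calls was not tested. The median log2 change over all probe sets was -0.05 after quantile normalization and -0.08 after median centring, beside -0.01 as deposited, and median centring left DLL1, DLL4 and JAG1 uncalled, quantile normalization DLL1 and DLL4. Signal over background could not be judged, as detection calls were not used here.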
